A study of Mus musculus with 4 samples.

Results

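The genes described here carry long-chain fatty acids into mitochondria and break them down there. They are 10 genes taken by name, Cpt1a, Cpt2, Slc25a20, Crat, Acadl, Acadm, Acadvl, Acaa2, Etfdh and Hadha, out of 19938 genes with a probe of exactly 1 gene on the array. They were measured in peritoneal macrophages of wild type C57BL/6 mice, 8 to 12 weeks old, which had been drawn into the cavity by 1 mL of 4% thioglycolic acid and collected after 3 days. The adherent cells of 3 groups were kept for 6 h in 500 µM of a fatty acid bound to albumin (BSA). Palmitic acid is saturated, with 16 carbons and 0 double bonds. Of those with 18 carbons, oleic acid holds 1 double bond and linoleic acid holds 2. The control group had no fatty acid for the same time; one label gives BSA alone, and the treatment protocol lists ethanol with KOH. RNA of 3 samples was pooled for the single array of a group, and it is not stated whether these came from separate mice. There are 4 arrays in all and no replicates, so no test, error or interval of a difference between groups can be given, and each difference is one between 2 arrays.

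Fatty acids reach the mitochondrial matrix as carnitine esters. Carnitine palmitoyltransferase 1 on the outer membrane makes the ester from the acyl-CoA, a carrier in the inner membrane exchanges it for free carnitine, and carnitine palmitoyltransferase 2 on the inner side remakes the acyl-CoA. Acyl-CoA dehydrogenases then start each turn of the beta-oxidation spiral and pass electrons to the respiratory chain, and hydratase, dehydrogenase and thiolase steps complete the turn. Malonyl-CoA inhibits the first transferase, and many genes of the pathway are targets of the fatty acid sensing nuclear receptors of the PPAR family. In macrophages, fatty acid oxidation is best known from studies of alternative activation.

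Values are on a log2 scale, so that a difference of 0.58 is 1.5-fold. A lower limit of 0.32 log2 units was also counted. All 10 genes passed the filter on dim genes, which asked for a value of at least 7.09, the median of all values, in the brightest of the 4 arrays, and which kept 11174 genes. Their lowest value on any array was 8.19, so that none of the 10 passed through 1 group alone. Each of the 10 is measured by 1 probe. Over all probes the arrays correlated between r = 0.991 and r = 0.996, and the array medians lay between 7.07 and 7.13. All 10 macrophage markers, Adgre1, Cd68 and Lyz2 among them, were at 10.03 or higher on every array.

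The main feature of these genes was a higher level with oleic acid at the entry step and at a few later steps, together with a flat profile for most of the dehydrogenases. In the oleic acid array 2 of the 10 genes, Cpt1a and Acaa2, were at least 1.5-fold higher than in the control array, where 0.376% of all kept genes were so, and 4, with Slc25a20 and Etfdh, were higher by at least 0.32, against 2.35% of all kept genes. In the palmitic acid array 1 of the 10, Cpt1a, was at least 1.5-fold higher, against 2.17% of all kept genes, and it was also the only one higher by at least 0.32, against 8.65%. In the linoleic acid array 0 of the 10 were at least 1.5-fold higher, against 0.0358% of all kept genes, and 0 were higher by at least 0.32, against 1.2%. None of the 10 was lower by 0.32 in any of these comparisons, against 5.58% of kept genes with palmitic acid, 1.52% with oleic acid and 0.528% under linoleic acid. The 10 were named with earlier results of these arrays known, so these counts describe the genes and do not test the pathway. In such bulk samples, fewer cells of a type and less RNA per cell cannot be told apart.

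**Figure D1:**
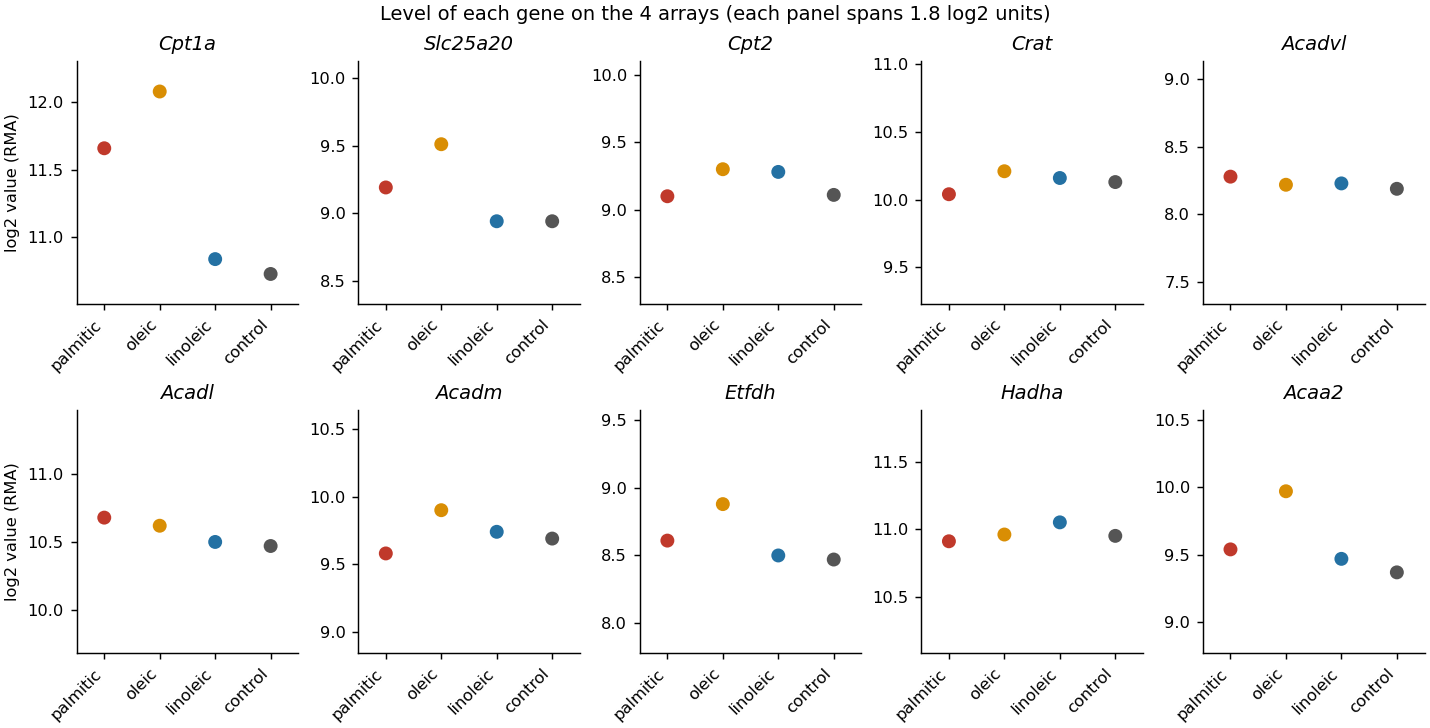
Log2 value (vertical axis) of each of the 10 genes on the palmitic acid, oleic acid, linoleic acid and control arrays (horizontal axis), 1 point an array. All panels span the same number of log2 units. Cpt1a, Slc25a20, Acaa2 and Etfdh show the same order of arrays, with oleic acid highest and the control lowest. For Slc25a20 linoleic acid and the control are both at 8.94 after rounding.

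The start regions of 4 of these genes are shown. Cpt1a, Slc25a20 and Etfdh were higher together with oleic acid, and Hadha differed least between the oleic acid and control arrays. A part of these regions in the differences was not tested. RefSeq windows of assembly GRCm38.p6, from 250 bases before to 50 after the gene start on the gene's strand, were found for 8 of the 10 genes. Acaa2 and Crat are named only. Capitals mark matches, on either strand, to AGGTCA (the half-site of PPAR and related nuclear receptors), CCAAT (the box bound by NF-Y) and GGGCGG (the GC box). The 4 windows are chr19:3323051-3323350 on the plus strand for Cpt1a, chr9:108661886-108662185 on the plus strand for Slc25a20, chr3:79628718-79629017 on the minus strand for Etfdh and chr5:30154931-30155230 on the minus strand for Hadha.
Cpt1a: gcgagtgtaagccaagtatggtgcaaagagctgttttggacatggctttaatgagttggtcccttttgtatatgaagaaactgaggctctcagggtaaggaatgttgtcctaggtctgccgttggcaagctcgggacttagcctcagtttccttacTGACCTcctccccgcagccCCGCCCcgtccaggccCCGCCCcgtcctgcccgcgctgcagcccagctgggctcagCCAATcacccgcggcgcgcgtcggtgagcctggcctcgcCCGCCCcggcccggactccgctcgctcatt
Slc25a20: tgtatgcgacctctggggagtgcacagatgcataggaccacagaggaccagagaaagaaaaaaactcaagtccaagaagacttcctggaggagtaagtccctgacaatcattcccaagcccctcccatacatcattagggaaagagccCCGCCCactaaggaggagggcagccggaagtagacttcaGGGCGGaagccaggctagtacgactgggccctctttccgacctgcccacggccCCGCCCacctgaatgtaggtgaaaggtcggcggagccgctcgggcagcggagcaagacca
Etfdh: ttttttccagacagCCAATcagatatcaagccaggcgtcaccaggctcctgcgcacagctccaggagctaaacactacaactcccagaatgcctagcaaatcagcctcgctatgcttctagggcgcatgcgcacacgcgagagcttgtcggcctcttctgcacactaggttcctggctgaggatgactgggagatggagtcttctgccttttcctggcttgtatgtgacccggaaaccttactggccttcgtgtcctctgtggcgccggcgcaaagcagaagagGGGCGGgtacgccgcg
Hadha: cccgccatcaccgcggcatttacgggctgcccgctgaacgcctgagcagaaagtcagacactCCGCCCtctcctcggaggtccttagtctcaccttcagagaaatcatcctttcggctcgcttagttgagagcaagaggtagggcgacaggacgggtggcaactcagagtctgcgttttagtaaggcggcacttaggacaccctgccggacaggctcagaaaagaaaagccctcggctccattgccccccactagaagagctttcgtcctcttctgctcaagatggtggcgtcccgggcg

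Cpt1a held 1 half-site, whose first base lay at position -94 from the start, 1 CCAAT box at -19 and 3 GC boxes. Slc25a20 held 3 GC boxes and 0 half-sites. Etfdh held 1 CCAAT box at -236 and 1 GC box, and Hadha 1 GC box. Of the 8 windows, 3 held a half-site (Cpt1a, Acadvl and Acadm), against 16.3% of all 32851 windows, and 6 held a GC box, against 35.7%. The 6 windows with a GC box were 57.3% to 70.3% G and C, against a median of 52.7% over all windows. Without a GC box were Acadm (62.3%) and Acadvl (50.7%). A CCAAT box was in 2 of the 8, against 37.4% of all windows. The paired site that PPAR binds with RXR, 2 AGGTCA half-sites with 1 base between them, was in 0 of the 8 windows and in 0.0396% of all. It was in 0 of the 8 also when each half-site was read as AGGNCA, a form found in 0.381% of all windows. A half-site with TCA directly before it was in 0 of the 8 and 0.423% of all windows, and CACGTG in 0 of the 8 and 7.15% of all. Half-sites inside the longer motifs were counted under both names. These matches describe letters in a short window, and windows elsewhere in the genes were not analysed here.

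**Figure D2:**
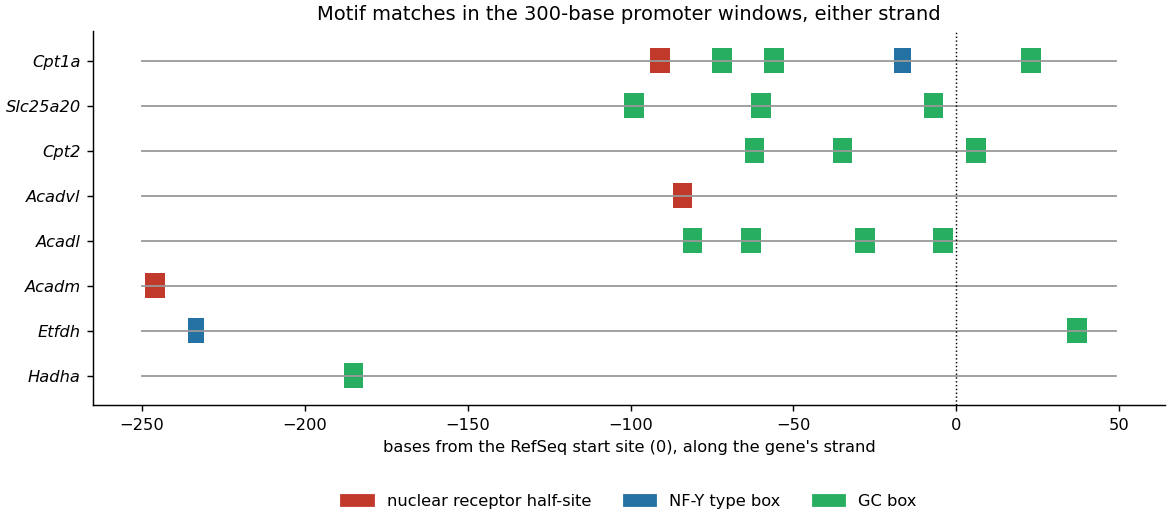
Motif matches on either strand (coloured boxes) along the promoter windows of 8 genes, 1 row a gene, by distance in bases from the RefSeq start site at 0 (horizontal axis). Half-sites lie in Cpt1a, Acadvl and Acadm, and GC boxes lie in 6 of the 8 windows.

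Cpt1a codes for the liver-type carnitine palmitoyltransferase 1, the regulated entry step of the pathway. It was at 11.66 in the palmitic acid array, 12.08 in the oleic acid array and 10.84 in the linoleic acid array, against 10.73 in the control array. The palmitic and oleic acid arrays thus stood well above a pair formed by linoleic acid and the control. Against the control the difference was 0.93 with palmitic acid, or 1.90-fold, 1.35 with oleic acid, or 2.54-fold, and 0.11 with linoleic acid. Ranked from the highest among 11174 kept genes, these differences took place 57 for palmitic acid, 2 for oleic acid and 3139 for linoleic acid. The oleic acid value was thus among the largest on its array, and the linoleic acid value lay well inside the bulk of genes.

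Slc25a20 codes for the carnitine-acylcarnitine translocase, the carrier of the inner membrane. Its values were 9.19 with palmitic, 9.51 with oleic and 8.94 with linoleic acid, against 8.94 in the control. The oleic acid difference of 0.57, or 1.49-fold, ranked 46 from the highest and fell just short of 1.5-fold. With each array centred on its median it was 0.59 and past that limit. With palmitic acid the difference was 0.25, at rank 1489, and with linoleic acid it was 0.00.

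Cpt2 codes for carnitine palmitoyltransferase 2, which works on the matrix side. It was at 9.10 with palmitic, 9.30 with oleic and 9.28 with linoleic acid, against 9.11 in the control. Unlike Cpt1a, it had its 2 higher values in the oleic and linoleic acid arrays, at differences of 0.18 and 0.17, with palmitic acid at -0.02. Both of the higher values lay inside the bulk, at ranks 1085 and 1471. Crat codes for carnitine acetyltransferase, which moves short acyl groups between CoA and carnitine. It was at 10.04 with palmitic, 10.21 with oleic and 10.16 with linoleic acid, against 10.13 in the control. Its values spanned 0.17 over the 4 arrays, with oleic acid at the top and palmitic acid at the bottom.

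The 3 acyl-CoA dehydrogenases differ in the chain length they prefer. Acadvl, for very long chains, had 8.28 with palmitic, 8.22 with oleic and 8.23 with linoleic acid, against 8.19 in the control. Its span of 0.08 was the narrowest of the 10 genes. Acadl, for long chains, had 10.68 with palmitic, 10.62 with oleic and 10.50 with linoleic acid, against 10.47 in the control. It was 1 of 2 genes of the 10, with Acadvl, that were highest in the palmitic acid array, at a difference of 0.21 and rank 1904. Acadm, for medium chains, had 9.58 with palmitic, 9.90 with oleic and 9.74 with linoleic acid, against 9.69 in the control. Here oleic acid was at the top, with a difference of 0.21 at rank 830, and palmitic acid was the lowest array, at -0.11. None of the dehydrogenases reached 0.32 against the control in any fatty acid array.

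Etfdh codes for the oxidoreductase that takes electrons from the dehydrogenases, by way of the electron transfer flavoprotein, to ubiquinone. It had 8.61 with palmitic, 8.88 with oleic and 8.50 with linoleic acid, against 8.47 in the control. The difference with oleic acid was 0.41, or 1.32-fold, at rank 139, beside 0.14 with palmitic acid and 0.03 with linoleic acid. Hadha codes for the alpha subunit of the trifunctional protein, which carries hydratase and dehydrogenase activity for long chains. It had 10.91 with palmitic, 10.96 with oleic and 11.05 with linoleic acid, against 10.95 in the control. It was the only gene of the 10 with linoleic acid at the top, at a difference of 0.10, and its oleic acid difference was 0.01.

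Acaa2 codes for a 3-ketoacyl-CoA thiolase, a type of enzyme that releases acetyl-CoA at the end of a turn. Its values were 9.54 with palmitic, 9.97 with oleic and 9.47 with linoleic acid, against 9.37 in the control. The oleic acid array stood apart from the other 3, which lay within a narrow range. That difference was 0.60, or 1.51-fold, at rank 40 from the highest, while palmitic acid was at 0.16 and linoleic acid at 0.10. Acaa2 and the carrier gene Slc25a20 thus had oleic acid differences of like size, 0.60 and 0.57, with Hadha near 0.

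Over the 10 genes the median difference from the control was 0.11 with palmitic, 0.20 with oleic and 0.04 with linoleic acid, beside medians over all kept genes of 0.00, 0.01 and 0.04. Without Cpt1a the medians were 0.08, 0.18 and 0.04. With oleic acid 10 of 10 genes were above the control, against 55.3% of kept genes, though Hadha and Acadvl only by 0.01 and 0.03. This count was also 10 of 10 when the quantile normalisation was repeated. Centring the arrays could not lower it, because the oleic acid array had a lower median than the control array (7.07 and 7.09). With palmitic acid 6 of 10 were above it, against 50.1% of kept genes. With linoleic acid 10 of 10 were above it, against 65.2%, but only 6 of 10 were so after centring and 4 of 10 after repeated quantile normalisation. The 3 comparisons share the control array.

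**Figure D3:**
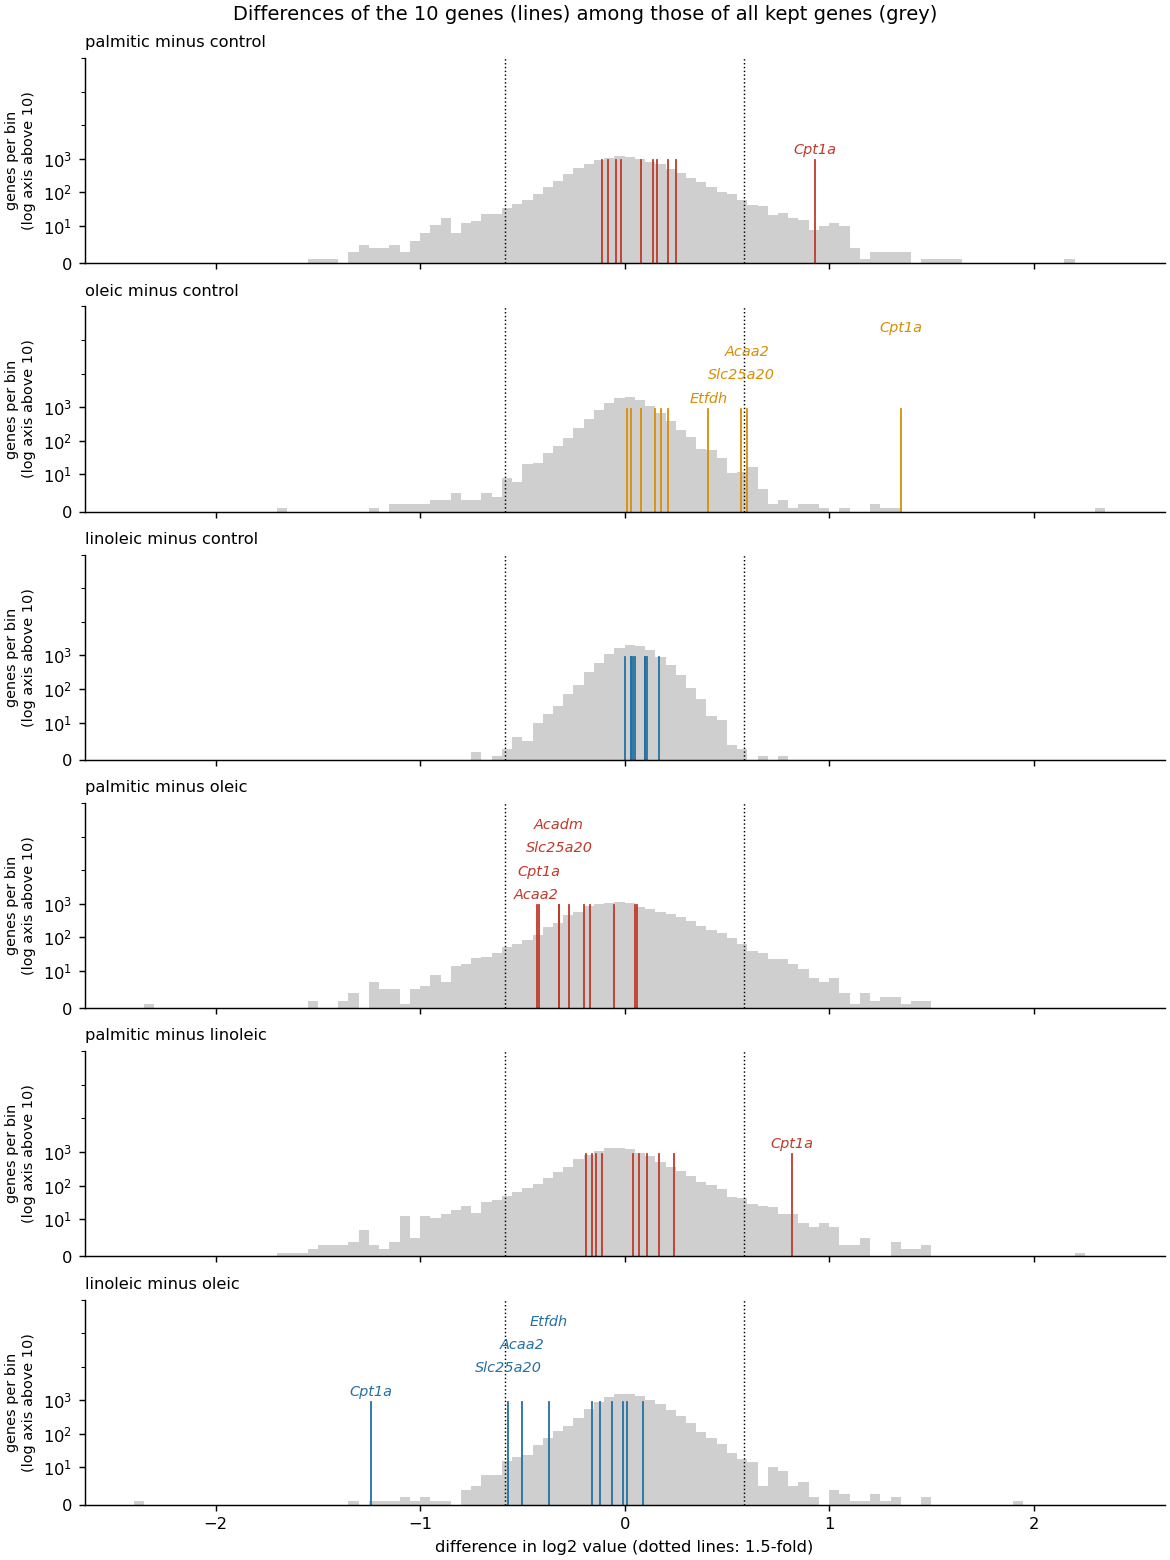
Differences in log2 value (horizontal axis) of the 10 genes (coloured lines, named where at least 0.3 from 0) among those of all 11174 kept genes (grey, genes per bin of 0.05, log vertical axis above 10), 1 panel for each comparison. Cpt1a lies far to the right in palmitic minus control (0.93), oleic minus control (1.35) and palmitic minus linoleic (0.82), and far to the left in linoleic minus oleic (-1.24).

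By the order of the arrays the 10 genes fell into a few profiles. In 4 of them, Cpt1a, Slc25a20, Acaa2 and Etfdh, oleic acid was highest, then palmitic acid, then linoleic acid, then the control, an order held by 2.86% of all kept genes. In 3 of them, Cpt2, Crat and Acadm, the order was oleic acid, linoleic acid, control and palmitic acid, held by 8.03%. The other 3 had an order each. It was palmitic, oleic, linoleic acid and control for Acadl (5.13% of kept genes), palmitic, linoleic, oleic acid and control for Acadvl (7.04%), and linoleic, oleic acid, control and palmitic acid for Hadha (6.69%). Oleic acid was the highest array for 7 of 10 genes, against 26.9% of kept genes, and the lowest for 0 of 10, against 23.9%. The control was the lowest array for 6 of 10, against 24.6%, and palmitic acid for 4 of 10, against 38.1%. Palmitic acid was highest for 2 of 10, against 30.5%, and linoleic acid for 1 of 10, against 29.1%. For the flat genes such as Acadvl and Crat, neighbours in these orders differ by a few hundredths, and without replicates none of the orders has an error. The lower end of the order shared by 4 genes was also narrow. Linoleic acid minus control was 0.00 for Slc25a20 and 0.03 for Etfdh. After repeated quantile normalisation these differences were -0.06 and -0.02, so that the control was no longer the lowest array for either gene. Nor was it the lowest for Acadl (-0.01) or Acadvl (-0.03), so the count of 6 of 10 depends on the normalisation.

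The fatty acids were compared with each other at the same concentration and time, in 3 pairs. Linoleic acid has 1 double bond more than oleic acid at equal chain length. Cpt1a was at 10.84 with linoleic acid and 12.08 with oleic acid, a difference of -1.24 or 2.36-fold, with 2 genes of all kept genes lower. It was the only gene of the 10 past 1.5-fold in this pair, where 0.34% of kept genes were lower by as much. By 0.32 or more 4 of the 10 were lower with linoleic acid, against 2.52% of kept genes. Besides Cpt1a these were Slc25a20 (-0.57), Acaa2 (-0.50) and Etfdh (-0.37), at ranks 40, 75 and 174 from the lowest. After centring or repeated quantile normalisation Slc25a20 also passed 1.5-fold, at -0.62 under both. The median over the 10 genes was -0.14, beside 0.02 over all kept genes. Cpt2 (-0.01), Acadvl (0.01) and Hadha (0.09) were close in the 2 arrays.

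Palmitic and oleic acid differ in chain length and in the double bond. In this pair 0 of the 10 genes were past 1.5-fold, against 1.66% of kept genes lower and 1.82% higher. The palmitic acid array was lower for 8 of 10 genes, against 54.1% of kept genes, with a median of -0.23 beside -0.02 over all kept genes. By 0.32 or more 3 of the 10 were lower with palmitic acid, against 7.45% of kept genes. These were Acaa2 (-0.43), Cpt1a (-0.42) and Slc25a20 (-0.32), and Acadm, at -0.32 after rounding, lay just inside the limit. Acaa2 was at 9.54 with palmitic acid and 9.97 with oleic acid, or 1.35-fold. Acadl (0.05) and Acadvl (0.06) were the 2 genes above 0, and Acadvl was at -0.01 after repeated quantile normalisation.

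Palmitic and linoleic acid differ in chain length and in 2 double bonds. Cpt1a was at 11.66 with palmitic acid and 10.84 with linoleic acid, a difference of 0.82 or 1.77-fold at rank 65 from the highest, and the only one of the 10 past 1.5-fold, against 1.58% of kept genes. The other 9 genes lay between -0.19 for Cpt2 and 0.24 for Slc25a20. The median over the 10 was 0.06, beside -0.03 over all kept genes. Cpt1a was thus also the one gene of the 10 higher by at least 0.32, against 5.88% of kept genes, and 0 were lower by as much, against 7.26%.

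Of 18 other enzymes of mitochondrial beta-oxidation listed, 14 were kept, with medians of -0.14 with palmitic, 0.03 with oleic and -0.09 with linoleic acid. Of these, 0 of 14 reached 1.5-fold either way against the control in any array. The shares of all kept genes that did were 3.57% with palmitic, 0.716% with oleic and 0.0716% with linoleic acid. Acot2, a mitochondrial acyl-CoA thioesterase, had 9.37 with palmitic, 9.59 with oleic and 9.02 with linoleic acid, against 9.12 in the control. Its oleic acid difference of 0.47 was the only one of the 14 higher by at least 0.32 in that array, against 2.35% of all kept genes. With palmitic acid 2 of the 14 were lower by at least 0.32, against 5.58%, Eci2 (-0.42), an enoyl-CoA isomerase, and Acot13 (-0.35), an acyl-CoA thioesterase. Etfb, a subunit of the electron transfer flavoprotein, was at 0.23 with oleic acid, while its partner Etfa was at -0.07. The medium- and short-chain steps Hadh (-0.32), Echs1 (-0.26) and Acads (0.04) did not share 1 direction with palmitic acid. Hadh, at -0.32 after rounding, lay just inside the limit. Hadhb, the beta subunit that pairs with Hadha, lay at -0.04 with palmitic, 0.05 with oleic and -0.09 with linoleic acid. In the palmitic acid array 10 of these 14 were below the control, against 49.9% of kept genes.

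Beside the lower values with palmitic acid, markers of other cells of the cavity differed too. Of 11 mesothelial and fibroblast markers 8 were kept, and 8 of 8 were lower with palmitic acid, against 49.9% of all kept genes. The median of these markers was -0.23, with Pdgfra at -0.86. Their summed level, over all 11, was 11.95 on the log2 scale with palmitic, 12.18 with oleic and 12.28 with linoleic acid, against 12.21 in the control, and Upk3b, Krt19 and Lum were dim on every array. The part of these cells in the values was not tested. Of the 10 macrophage markers, Fcgr1 was past 1.5-fold, at -0.66 with palmitic acid and 0.65 with oleic acid, and the list had medians of -0.06 with palmitic, 0.05 with oleic and 0.01 with linoleic acid. In B cell, T cell, eosinophil, neutrophil and mast cell lists, 1, 1, 1, 2 and 1 markers were kept. The kept ones were Cd79b, Cd3e, Siglecf, S100a8 with Csf3r, and Kit. Summed levels ran from 7.94 for mast cells with palmitic acid to 11.74 for neutrophils with linoleic acid. The neutrophil sum was mostly Csf3r, at 11.49 on that array, beside S100a8 at 7.95. The other neutrophil markers, S100a9, Ly6g, Retnlg and Camp, were dim on every array. Kit was at 6.85 with palmitic, 6.85 with oleic and 7.64 with linoleic acid, against 7.30 in the control.

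Carnitine itself has to be made or imported. Of 8 genes of carnitine supply and transport 6 were kept, with medians of -0.02 with palmitic, 0.09 with oleic and 0.01 with linoleic acid. The main carnitine importer Slc22a5 lay between -0.12 and 0.07. Slc22a4, a related organic cation transporter that prefers ergothioneine, was at 9.74 with palmitic, 9.17 with oleic and 8.88 with linoleic acid, against 9.05 in the control. Its palmitic acid difference of 0.69 was the only one of the 6 past 1.5-fold, where 2.17% of all kept genes were higher by that limit. Aldh9a1, an enzyme of carnitine synthesis, was at 0.32 with oleic acid.

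Among 7 kept genes of malonyl-CoA and AMP kinase control, 0 reached 1.5-fold against the control. Few of all kept genes did, 3.57% with palmitic, 0.716% with oleic and 0.0716% with linoleic acid. Acaca, which codes for the acetyl-CoA carboxylase that makes malonyl-CoA, was at 8.80 with palmitic, 8.49 with oleic and 9.26 with linoleic acid, against 9.06 in the control. Its lowest value was with oleic acid, where Cpt1a had its highest, and linoleic minus oleic acid was 0.78. Mlycd, which codes for the enzyme that removes malonyl-CoA, was at -0.32 with palmitic, 0.05 with oleic and -0.01 with linoleic acid. The AMP kinase subunit gene Prkaa1 was at 0.22 with oleic acid. The list medians were -0.14 with palmitic, 0.05 with oleic and 0.00 with linoleic acid.

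Peroxisomal beta-oxidation, the parallel route for very long chains, was measured by 9 kept of 16 listed genes. Its medians were -0.04 with palmitic, 0.09 with oleic and 0.02 with linoleic acid, and 0 of 9 reached 1.5-fold against the control. Among all kept genes 3.57% with palmitic, 0.716% with oleic and 0.0716% with linoleic acid reached it. Pex11a, a gene of peroxisome division, had 8.62 with palmitic, 9.20 with oleic and 8.71 with linoleic acid, against 8.65 in the control. Its difference of 0.55 with oleic acid and -0.04 with palmitic acid set the 2 arrays apart, and the direct difference of palmitic minus oleic acid was -0.59. Enzymes such as Hsd17b4 (0.07), Acaa1a (0.03) and Ech1 (0.09) were near the control with oleic acid.

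Some genes of the receptors and coregulators had another profile over the arrays. Ppard, which codes for PPAR delta, was at 11.16 with palmitic, 10.38 with oleic and 10.50 with linoleic acid, against 10.41 in the control. That made it 0.75 higher with palmitic acid and -0.04 with oleic acid. It was the only one of 8 kept genes at least 1.5-fold higher with palmitic acid, against 2.17% of all kept genes. Pparg had a like profile, at 0.51 with palmitic acid and -0.16 with oleic acid, and so had the coactivator gene Ppargc1b at 0.34 and -0.17. Lpin1 was at 0.11 and -0.23. The other kept genes of the list did not share this profile. With palmitic and oleic acid these were Rxra (0.00 and -0.14), Rxrb (0.14 and 0.17), Esrra (-0.05 and 0.11) and Nrip1 (0.07 and 0.06). Ppara and Ppargc1a were dim on every array, at most 6.28 and 5.21. The list medians were 0.12 with palmitic, -0.09 with oleic and 0.09 with linoleic acid.

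PPAR targets outside the pathway held larger differences. Of 14 listed 6 were kept, and 2 of them were past 1.5-fold with palmitic acid, Hilpda (2.17) and Plin2 (1.20), which code for lipid droplet proteins. With oleic acid 3 were past it, Hilpda (2.34), Plin2 (1.22) and Angptl4 (0.95), an inhibitor of lipoprotein lipase, and 0 were with linoleic acid. Higher by that limit were 2.17%, 0.376% and 0.0358% of all kept genes with palmitic, oleic and linoleic acid. Angptl4 was at 7.67 with palmitic, 8.22 with oleic and 7.29 with linoleic acid, against 7.27 in the control, the same order as the 4 oxidation genes above. The lower end of this order was narrow here too, with linoleic acid minus control at 0.01. Cd36 and Lpl were within 0.11 of the control in all 3 arrays, at values above 13. The list medians were 0.36 with palmitic, 0.56 with oleic and -0.03 with linoleic acid.

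General mitochondrial genes did not share the oleic acid profile. Of 21 genes for import pores, carriers of the outer membrane, respiratory chain subunits and chaperones, 20 were kept. Their differences with oleic acid ran from -0.14 for Timm44 to 0.09 for Cox4i1, with a median of -0.04. With palmitic acid the median was 0.08, with 16 of 20 above 0, against 50.1% of kept genes, and the chaperone gene Hspa9 highest at 0.41, and with linoleic acid it was 0.02. None of the 20 reached 1.5-fold in any comparison with the control. Among all kept genes 3.57% did with palmitic, 0.716% with oleic and 0.0716% with linoleic acid.

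**Figure D4:**
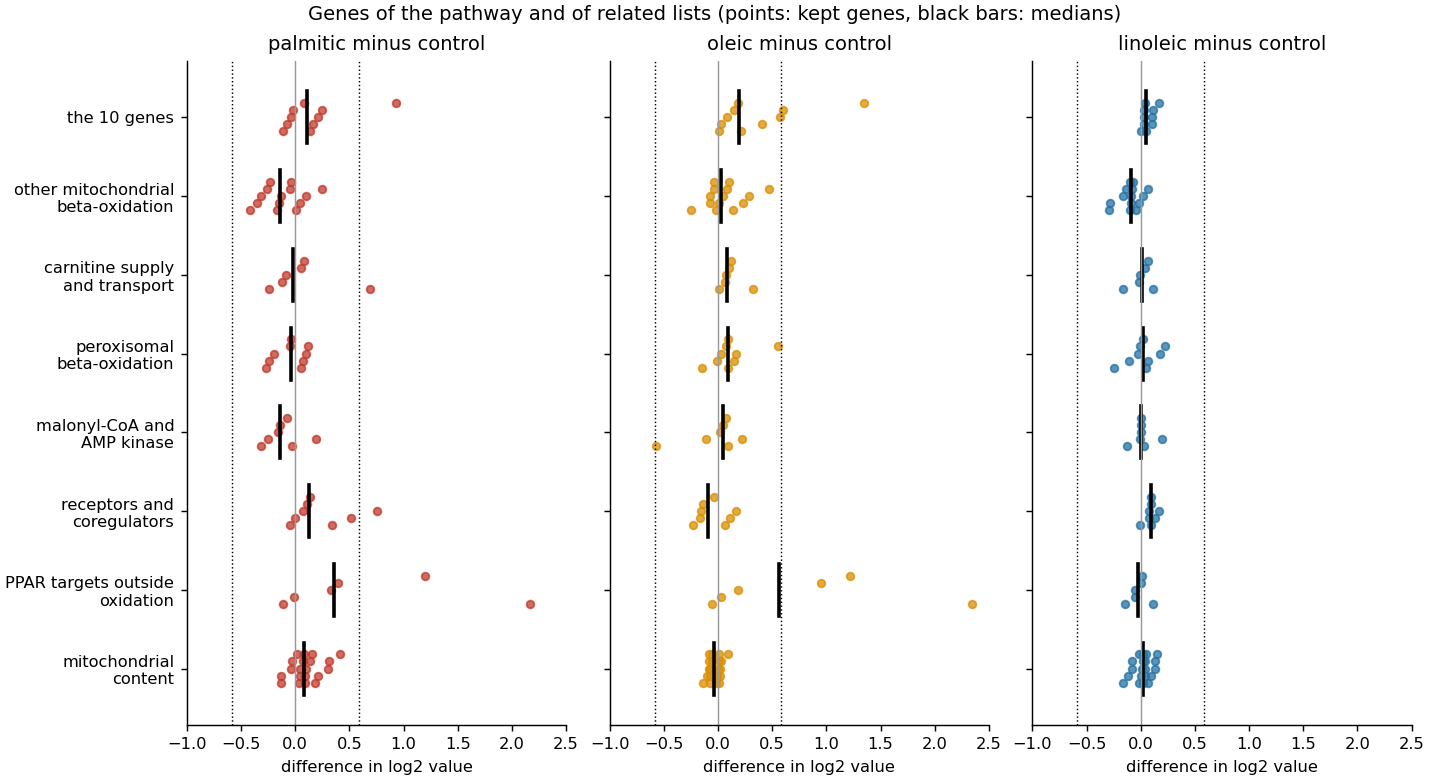
Difference in log2 value from the control array (horizontal axis) for the kept genes of 8 lists (rows), with palmitic acid, oleic acid and linoleic acid in 1 panel each. Points are genes, black bars list medians and dotted lines 1.5-fold. With oleic acid the 10 genes reach up to 1.35, while the mitochondrial content genes stay between -0.14 and 0.09.

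The genes nearest in pattern to the 2 oxidation genes past 1.5-fold were found from the 4 array values, each gene centred on its own mean, by Euclidean distance among 11174 kept genes. Predicted genes, pseudogenes, small RNA genes, and olfactory and vomeronasal receptor genes were left out of the 5 named. The places of the 10 genes given below are among all kept genes. For Cpt1a the 5 nearest were Smox (spermine oxidase), at a distance of 0.28, Plin2 at 0.288, Cd300a (an inhibitory receptor) at 0.296, Hamp (hepcidin) at 0.357 and Ccr1 (a chemokine receptor) at 0.373. Smox was at 10.20 with palmitic, 10.82 with oleic and 9.75 with linoleic acid, against 9.58 in the control. For Acaa2 they were Fam78b at 0.022, Neurl3 at 0.058, B3gnt5 at 0.062, Nfil3 at 0.086 and Slc41a1 at 0.099. Fam78b, at 8.15 with palmitic, 8.61 with oleic and 8.10 with linoleic acid, against 7.99 in the control, followed Acaa2 most closely of these 5. Among the 10 genes themselves, Slc25a20 was the 15th nearest of all kept genes to Acaa2, at 0.125, and Etfdh the 27th, at 0.145. Slc25a20 was the 26th nearest to Cpt1a, at the larger distance of 0.682. Counted from Slc25a20, the same distance put Cpt1a at place 10253 of 11173 other kept genes, so the 2 were not close in pattern. These distances rest on 4 arrays that share their normalisation, and a small distance says nothing of shared control.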

How the data were processed

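RNA of 4 groups, each a pool of 3 samples with an RNA integrity number above 8.0, was labelled from 100 ng and measured on 1 Affymetrix array a group, per the labels' protocols. The authors deposited log2 values, and the submitters' processing notes name RMA, a method of background correction, quantile normalisation and probe summary. Its version is not given in the sources used here, and the log2 scale was checked against the range of the values, 2.28 to 14.44.

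Of 35556 probes, the platform annotation gives exactly 1 gene for 21789 and several for 1621. Probes were averaged per gene (19938 genes), and genes whose brightest array reached 7.09, the overall median, were kept (11174). For 6 comparisons the log2 difference was taken, and genes at least 1.5-fold or 0.32 log2 units apart were counted. With 1 array a group no test was possible, and the number of arrays limits the precision. Counting was tested on simulated data. Python 3.11.15, pandas 2.3.3 and numpy 2.4.6 were used.

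The 10 genes and the 17 lists (169 genes, from general knowledge) were chosen with earlier results of these data known. Named were the 10 genes, list members past 1.5-fold or among the 4 largest differences, some of them given only in their list's counts and range, and the 5 nearest genes of each of the 10 past 1.5-fold in a comparison. Other named list members were chosen for their role. Probes of several genes were not used here. Alternatives were array scaling, filter, probe choice, a floor and the fold limit.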

Additional observations from a re-analysis of the deposited data

How the results depend on the processing

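Results for the 10 genes were recomputed with the arrays centred on their medians, with quantile normalisation repeated, with no filter, a filter at the 75th percentile or on the mean, with the brightest probe per gene and with a floor. Of 408 single differences recomputed, 16 changed sign, changed side of 1.5-fold or moved by more than the spread of all genes. None of the differences past 1.5-fold changed sign. All 16 changes came with the centred arrays or the repeated quantile normalisation. The filters, the probe choice and the floor could not change the difference of any kept gene of the 10. Each of these genes has 1 probe and lay above the floor on every array. The count past 1.5-fold in linoleic minus oleic acid was 2 after centring and 2 after repeated quantile normalisation, in place of 1. Their median was -0.01 in linoleic acid minus control after repeated quantile normalisation, and -0.02 in palmitic minus linoleic acid with the 75th percentile filter, which kept 8 of the 10 genes. All kept genes past 1.5-fold in linoleic acid minus control numbered 8, but 29 with no filter and 4 with the 75th percentile filter. By construction the fold limit moved counts. At 0.32 log2 units the 10 genes gave 4 in oleic acid minus control, 3 in palmitic minus oleic acid and 4 in linoleic minus oleic acid. At 2-fold they gave 0 in palmitic acid minus control, 1 in oleic acid minus control and 0 in palmitic minus linoleic acid. For all kept genes the counts at 0.32 log2 units were 1590, 433 and 193 for palmitic, oleic and linoleic acid minus control, 1879 for palmitic minus oleic, 1468 for palmitic minus linoleic and 729 for linoleic minus oleic acid. At 2-fold they were 77, 14, 0, 62, 82 and 25 in the same order. Genes higher among those past 1.5-fold were 67.5% in linoleic minus oleic acid, but 52.2% after centring and 50.4% after repeated quantile normalisation. In linoleic acid minus control they were 50%, 22.2% and 18.2% in that order, of 8, 9 and 11 genes. No paired analysis was possible because each group is 1 array. The cause of these shifts was not tested. The single pooled array of each group limits all values.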

Other observations

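The acetyl-CoA that beta-oxidation yields enters the citrate cycle or ketone metabolism. Of 9 listed genes of these steps 5 were kept, with medians of -0.05 with palmitic, 0.09 with oleic and -0.12 with linoleic acid. Acss1, which codes for the mitochondrial enzyme that makes acetyl-CoA from acetate, was at 10.36 with palmitic, 9.50 with oleic and 9.33 with linoleic acid, against 9.33 in the control. Its difference of 1.02 with palmitic acid was larger than that of Cpt1a, 0.93, while with oleic acid the 2 genes were at 0.17 and 1.35. Cs, which codes for citrate synthase, was above the control in all 3 arrays, at 0.21, 0.19 and 0.14 for palmitic, oleic and linoleic acid. The ketone body enzyme gene Oxct1 was below it in all 3, at -0.20, -0.15 and -0.13.

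Dehydrogenases that feed electrons into the same flavoprotein from amino acids and choline breakdown served as a further list. Of 6 genes 5 were kept, with medians of -0.02 with palmitic, 0.02 with oleic and 0.04 with linoleic acid. In any of the 6 comparisons 0 of 5 reached 0.32 either way. The share of all kept genes that did ran from 1.73% in linoleic acid minus control to 16.8% in palmitic minus oleic acid. Ivd, for isovaleryl-CoA, was at 8.77 with palmitic, 8.70 with oleic and 8.78 with linoleic acid, against 8.59 in the control.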
